A study of Mus musculus with 6 samples.

Results

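Cytochrome P450 genes were taken as the protein-coding genes in the tables whose name is Cyp followed by a family number, a subfamily letter and a gene number. Of the 2031 genes in each table, 1 met this rule, Cyp2b23 (ENSMUSG00000040650). The GENCODE M21 annotation of the mouse genome holds 93 protein-coding genes with such names, and the other 92 were not analysed here. The tables hold only genes that the authors had listed as different between the 2 groups, and in the authors' deposited table no adjusted p exceeds 0.0499 and no log2 fold change is smaller in size than 1.001. Its presence in the tables already means that Cyp2b23 differed between the groups, and that difference is given here as a description.

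RNA was sequenced from the descendants of mouse embryonic stem cells of the line J1 (strain 129S4/SvJae), which had been induced towards heart muscle as hanging-drop embryoid bodies formed over 3 days. The 3 NC libraries are controls kept in a conventional incubator, the 3 MF libraries come from cells kept in a static magnetic field, and the series calls both groups biological triplicates. All 6 libraries share the one cell line, which limits them as a model. The sources used here do not give how strong the field was, how long it was applied or when cells were collected. The labels do not say whether the triplicates were separate cultures, so p-values measure the spread between these libraries, which may be technical.

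Cytochrome P450 enzymes are heme-containing monooxygenases. Those of the CYP2 family sit in the membrane of the endoplasmic reticulum, receive electrons from the reductase encoded by Por and oxidise drugs, steroids, fatty acids and other fat-soluble compounds. In mouse liver the best known member of the Cyp2b subfamily, Cyp2b10, is induced by phenobarbital through the nuclear receptor CAR (Nr1i3), and Cyp2b19 is a keratinocyte enzyme that makes epoxides from arachidonic acid. Cyp2b23 carries the Cyp2b name by its sequence.

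Cyp2b23 lies on the minus strand of mouse chromosome 7 (build mm10, positions 26665227 to 26686437). Its GENCODE transcript of 2189 bases has 9 exons, with 7 bases of 5′ UTR and 706 bases of 3′ UTR in exon 9. The 1476 coding bases encode 491 residues. Across the coding bases Cyp2b23 was 87.6% identical to Cyp2b10, 87.0% to Cyp2b19, 86.0% to Cyp2b9 and 85.1% to Cyp2b13. The stretch that codes for the loop holding the heme iron was closer still, and it is shown because it is the part that makes each of these proteins a P450. The 60 bases of Cyp2b23, coding bases 1270 to 1329, cross from exon 8 into exon 9. Capitals mark the codon of the heme-binding cysteine, residue 436, in Cyp2b23, and in the other genes the bases that differ from Cyp2b23.
Cyp2b23: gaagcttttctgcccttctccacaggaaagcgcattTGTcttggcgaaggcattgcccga
Cyp2b9: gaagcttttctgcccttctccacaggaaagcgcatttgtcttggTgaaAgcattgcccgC
Cyp2b10: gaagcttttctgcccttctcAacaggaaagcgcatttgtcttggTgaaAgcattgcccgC
Cyp2b13: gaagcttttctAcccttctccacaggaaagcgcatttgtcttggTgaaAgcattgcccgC
Cyp2b19: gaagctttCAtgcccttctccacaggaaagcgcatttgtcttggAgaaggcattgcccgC
Cyp2b9 differed at 3 of the 60 bases and each of the other 3 genes at 4. For Cyp2b10 the transcript with an uninterrupted loop was used.

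Because near-identical copies can share reads, the Cyp2b23 transcript was compared with all other GENCODE M21 transcripts on both strands. Of its 2140 windows of 50 bases, 95.6% occurred in no other gene, and the remaining 95 occurred in Cyp2b10, Cyp2b13 or Cyp2b19. Of 2090 windows of 100 bases, 5 were shared, all with Cyp2b19. They form the longest exact run that Cyp2b23 shares with another Cyp2b gene, 104 bases of exon 3 (chr7:26681329-26681432, minus strand), which is shown because reads from it could come from either gene.
Shared with Cyp2b19: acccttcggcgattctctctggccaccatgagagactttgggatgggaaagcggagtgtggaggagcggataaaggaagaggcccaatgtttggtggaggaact
As the sources used here give neither the read length nor the handling of reads with several matches, a small part of the counts of Cyp2b23 is uncertain. No annotated gene overlaps it on either strand.

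The window from 250 bases before to 50 bases after the RefSeq start of Cyp2b23 (RefSeq table, GRCm38.p6, chr7:26686381-26686680, minus strand) is shown as the promoter of the gene that differed, with capitals for the only match to the motifs searched. In GENCODE this RefSeq start, position 26686430, is the first coding base and follows 7 bases of 5′ UTR. The last 50 bases shown are therefore coding, and offsets are not counted from the GENCODE transcript start.
Cyp2b23 promoter: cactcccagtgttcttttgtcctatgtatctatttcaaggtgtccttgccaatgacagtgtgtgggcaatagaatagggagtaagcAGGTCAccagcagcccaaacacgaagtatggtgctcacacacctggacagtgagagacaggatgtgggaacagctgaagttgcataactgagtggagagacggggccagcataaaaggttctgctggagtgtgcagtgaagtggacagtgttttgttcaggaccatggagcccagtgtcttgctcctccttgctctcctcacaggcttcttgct
The motifs, searched on both strands, were AGGTCA and AGTTCA, which are half-sites of nuclear receptors, GCGTG, the core of the dioxin response element, and TATAAA; none of the 4 overlapped another here. AGGTCA occurred 1 time, starting 164 bases before the RefSeq start, and 16.3% of the 32851 promoters of this length in the table hold it. The promoters of Cyp2b9, Cyp2b13 and Cyp2b19 also held 1 match each and that of Cyp2b10 none. The other 3 motifs, which are in 14.0%, 32.4% and 13.6% of promoters in the order named, had no match in the Cyp2b23 window. The window has 2 CpG dinucleotides against a median of 7 over all promoters, and 23.3% of promoters have as few or fewer. It was 72.7% identical to the promoter of Cyp2b10, the closest of the 4, and 67.3% to that of Cyp2b19.

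Cyp2b23 lies within a cluster of Cyp2 genes. Within 500 kb of it the annotation holds 19 protein-coding genes, 10 of them P450 genes including Cyp2b23. None of the other genes in that window, of any biotype, is in the tables, so whether the cluster moved as a whole was not analysed here. The nearest genes in the tables are Exosc5, a subunit of the RNA exosome, 993.9 kb to the side of lower coordinates, and 9530053A07Rik, 1443 kb to the other side. Both are listed as lower in MF, with log2 fold changes of -1.18 and -1.59 in the authors' deposited table.

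**Figure D1:**
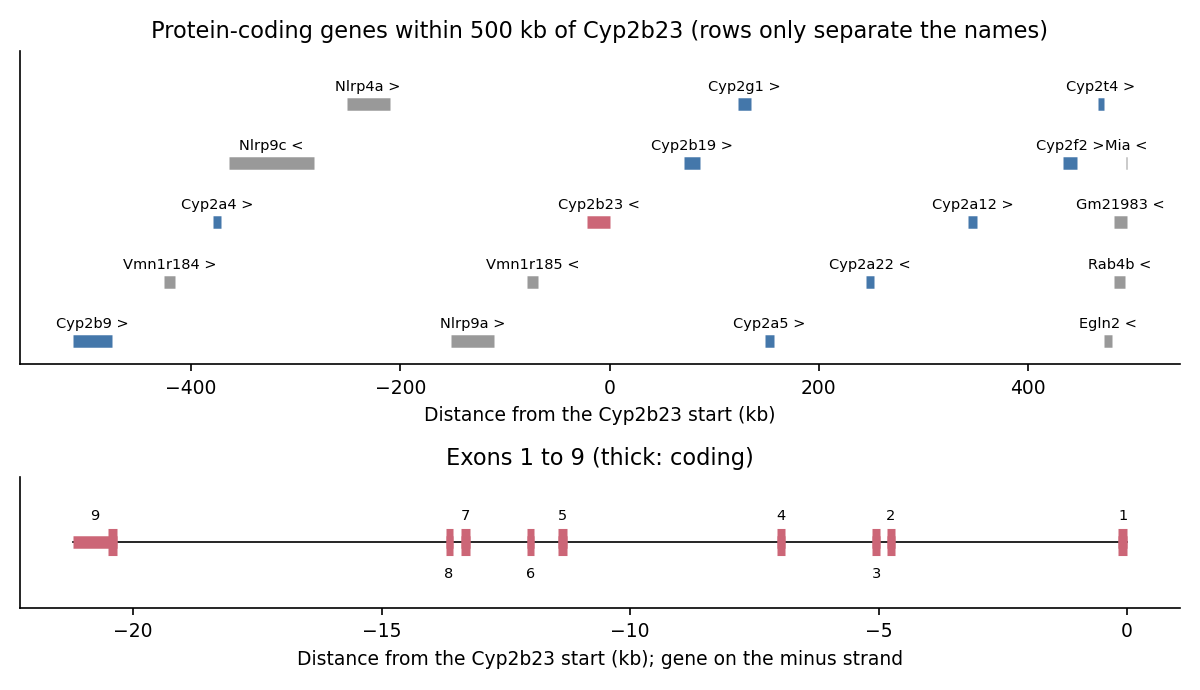
Protein-coding genes within 500 kb of Cyp2b23 (top) and the 9 exons of Cyp2b23 (bottom), drawn by distance in kb from its start, which is at 0; arrowheads after the names give the strand, red is Cyp2b23, blue other P450 genes and grey other genes. Cyp2b23 stands among 9 other P450 genes, and its untranslated part is almost wholly in exon 9.

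Cyp2b23 RNA was low in all libraries and lower in each exposed library than in any control. The deposited values are in FPKM, read counts scaled to gene length and to the library total. Cyp2b23 stood at 2.39, 2.67 and 1.44 FPKM in NC replicates 1, 2 and 3, from 82, 94 and 47 counts. In MF replicates 1, 2 and 3 it stood at 0.0715, 0.353 and 0.0561 FPKM, from 3, 13 and 2 counts. The groups did not overlap, and the lowest control library, replicate 3, was 4.07 times the highest exposed one, replicate 2. Groups also do not overlap for 92.5% of the tested genes, and 34.2% are lower in MF in this way, since the tables were selected for a difference.

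**Figure D2:**
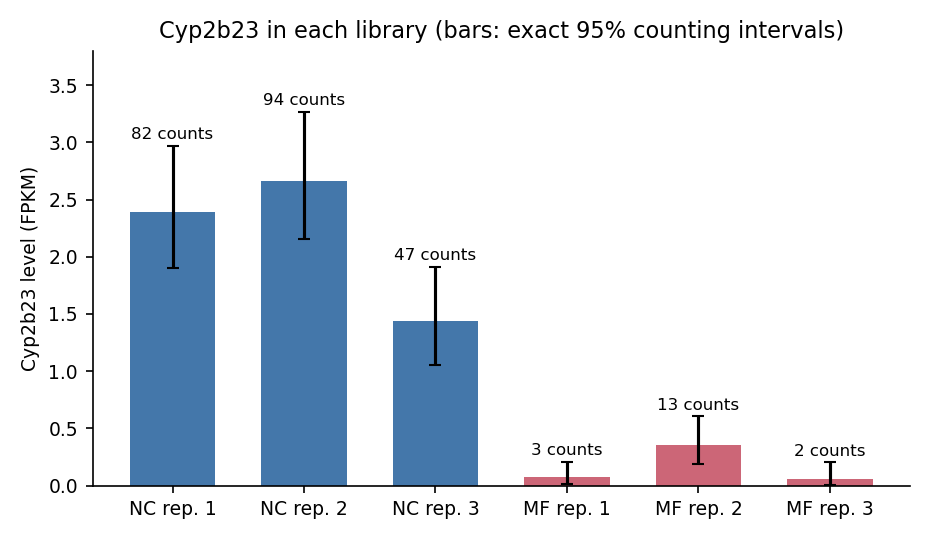
Level of Cyp2b23 in FPKM in each of the 6 libraries, with the count above each bar and exact 95% Poisson intervals, which cover counting error only. The 3 control libraries lie between 1.44 and 2.67 FPKM and the 3 exposed ones between 0.0561 and 0.353.

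Counting error limits what can be said within the exposed group more than within the controls. For a gene of this length 1 count is worth between 0.0238 and 0.0306 FPKM, depending on the library. MF replicates 1 and 3 are at or below 3 counts, about the one-sided 95% upper limit for a count of 0. The intervals given next are two-sided. The exact 95% Poisson interval was 0.188 to 0.604 FPKM in MF replicate 2 and 0.0147 to 0.209 in MF replicate 1. These intervals overlap slightly, which does not show that the levels agree. The interval of MF replicate 3 reached 0.203 FPKM. In the controls, the interval of NC replicate 3 ended at 1.91 FPKM and that of NC replicate 2 began at 2.15, so those 2 libraries differed beyond counting error. Even the upper end of MF replicate 2, at 0.604 FPKM, lay below the lower end of NC replicate 3, at 1.06 FPKM. The sources used here do not say whether PCR copies were removed, and these intervals cover counting error alone.

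On average Cyp2b23 stood at 2.17 ± 0.644 FPKM in NC and 0.160 ± 0.167 FPKM in MF (SD, n = 3 each). Over the groups, 223 control counts stood against 18 exposed counts, a ratio per library total of 13.9 with an exact 95% counting interval from 8.57 to 23.8. This interval leaves out the spread between libraries, which exceeded counting error in the controls. The edgeR quasi-likelihood fit over the 1651 named genes whose mean over the libraries reached 0.5 FPKM gave a 13.3-fold lower level in MF (log2 fold change -3.73, SE 0.82, adjusted p = 0.0135, Benjamini-Hochberg over those genes). The authors' deposited table gives a log2 fold change of -3.77 and an adjusted p of 7.31e-06. The same edgeR fit called 97.5% of the tested genes, 35.4% lower and 62.1% higher, so the call of Cyp2b23 is what nearly every gene of the tables receives. An exact two-sided permutation test of its 6 values gave p = 0.10, the smallest that 3 against 3 libraries allow. Adjusted over the 19069 tests that the authors' p-values imply, the edgeR fit gave an adjusted p of 0.156 for Cyp2b23, against 0.0360 with the replicate number as a block and 0.000882 by DESeq2 with the same library totals.

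The size of the difference depended in part on single libraries, and it moved with the scaling. Without MF replicate 2 the fold was 32.1 (edgeR adjusted p = 0.00354). Without MF replicate 3 the fold was 10.1 and the call was lost (edgeR adjusted p = 0.0662). That fit called 12 of the 1651 tested genes, 0 of them lower. The median log2 fold change of all tested genes was 1.22 with library totals, 0.52 with TMM and 0.16 with median-of-ratios scaling. Cyp2b23 was 20.8-fold and 25.2-fold lower in MF under TMM and median-of-ratios scaling. Both were computed from the 1651 tested genes alone, which were selected for a difference, with 62.1% called higher in the reported fit. Since both take most genes as unchanged, they cannot tell whether the size found with library totals is right.

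**Figure D3:**
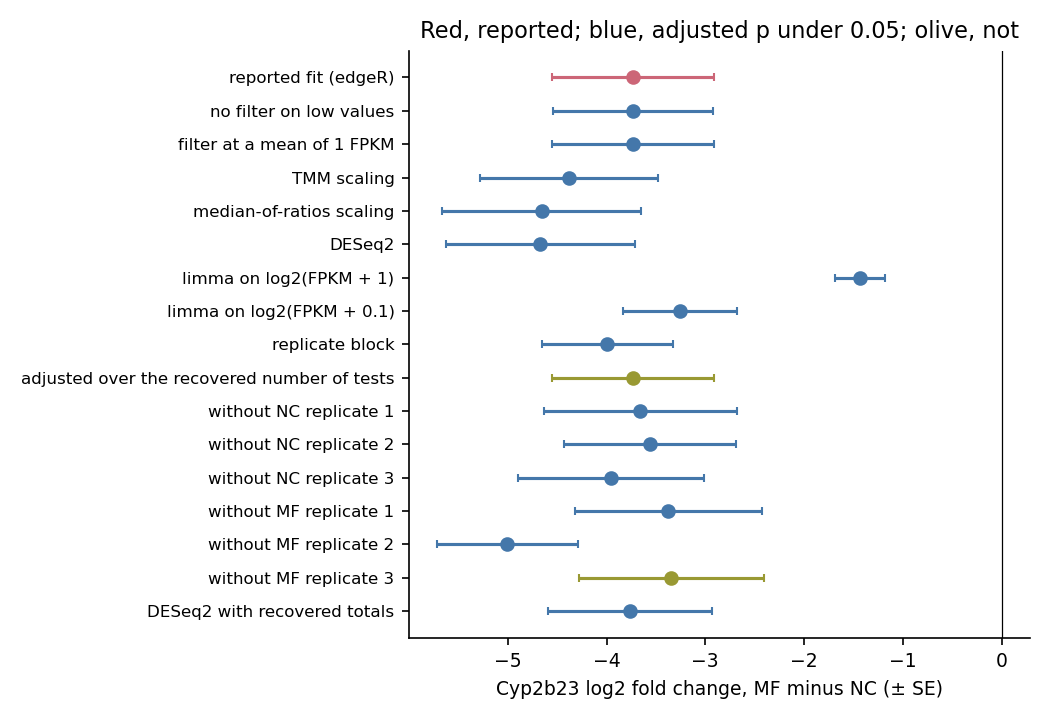
Log2 fold change of Cyp2b23, MF minus NC, with its standard error, in the reported edgeR fit (red) and in 16 alternatives (blue where the adjusted p was under 0.05, olive where not). Every value is negative, from -5.003 to -1.44, the value nearest 0 coming from limma on log2(FPKM + 1), whose pseudocount compresses low levels.

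Within the selected tables, Cyp2b23 was a gene of middling level in the controls and among the lowest in the exposed cells. Its NC mean exceeded that of 50.4% of the 1651 tested genes, while its MF mean exceeded that of 2.79%. By the log2 fold change of the authors' deposited table it ranks 77 among the 747 genes listed as lower in MF, and 30 among the 599 of these that passed the filter on low values.

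**Figure D4:**
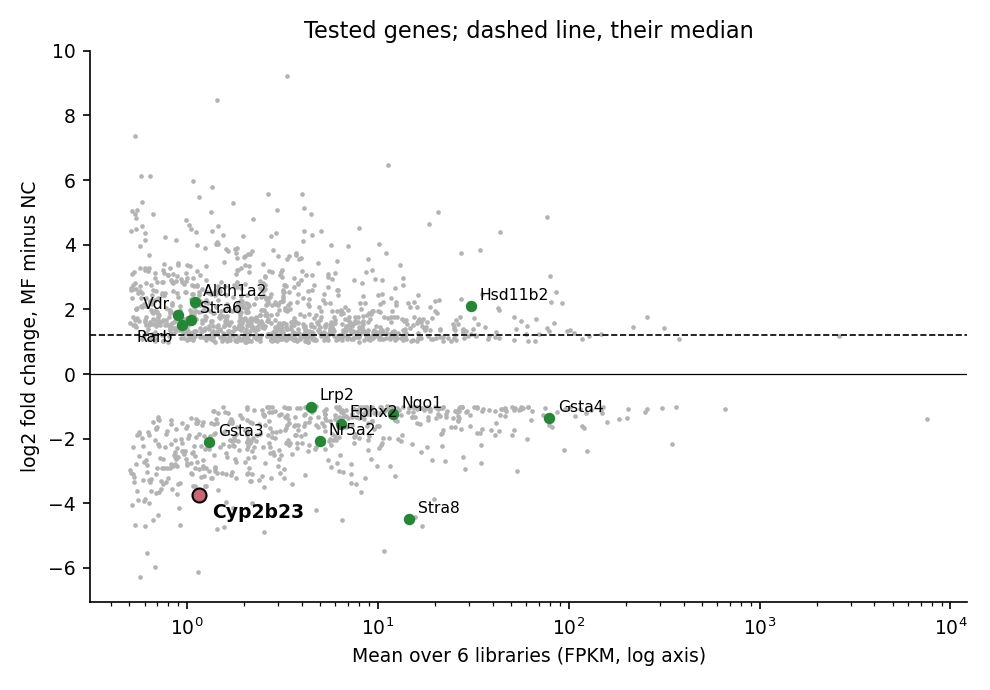
Log2 fold change from edgeR, MF minus NC, against the mean level over the 6 libraries in FPKM on a log axis, for the 1651 tested genes (grey), Cyp2b23 (red) and the named genes of the pathway lists (green). The empty band round 0 is the selection made by the authors, and the dashed line is the median of 1.22.

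Most genes listed as lower shared each of 3 features of the library order seen for Cyp2b23. Of the 599 tested genes listed as lower in MF, MF replicate 2 was the highest exposed library for 89.8%, NC replicate 2 the highest control library for 80.8% and NC replicate 3 the lowest control library for 58.6%, and Cyp2b23 had all 3 features. On the log2(FPKM + 0.1) scale, Cyp2b23 lay 3.68, 2.28 and 3.81 units below the NC mean in MF replicates 1, 2 and 3. The medians of the 599 genes lay 2.12, 0.92 and 1.84 units below it. MF replicate 2 thus stood nearest to the controls for Cyp2b23 and for the falling genes as a group. The lowest exposed library was MF replicate 3 for Cyp2b23, at 2 counts against 3 in MF replicate 1. By the medians it was MF replicate 1.

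The 3 genes with the closest pattern, by the Pearson correlation of log2(FPKM + 1) over the 6 libraries among 1982 other named genes, were Gm7666 (r = 0.997), Fbxo2 (0.996) and 9330185C12Rik (0.996). Fbxo2, which encodes a ubiquitin ligase subunit that binds glycoproteins, stood at 10.02 ± 1.52 FPKM over the NC and 3.87 ± 0.792 FPKM over the MF libraries (SD, n = 3). Gm7666 is a transcribed processed pseudogene, and it went from 12.4 ± 1.65 to 5.91 ± 0.435 FPKM. The long noncoding RNA 9330185C12Rik went from 1.18 ± 0.348 to 0.119 ± 0.156 FPKM. In all, 114 genes (5.75%) had a correlation above 0.95. With both groups in the correlation and tables selected for a group difference, high values are common, and no p is given.

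RNA of the sequenced cells is a mixture, in which fewer cells of a type and less RNA per cell cannot be told apart. Markers of several cell types moved with the groups as Cyp2b23 did or against it. Their counts stand against 35.4% of all tested genes called lower and 62.1% called higher, so a list with 1 or 2 genes in the tables shows little beyond the selection. Of 12 listed germ cell markers 8 are in the tables and all 8 fell, with a summed level of 78.9 to 249.6 FPKM over the NC libraries and 6.56 to 31.9 FPKM over the MF libraries. Of 14 markers of naive pluripotency 4 are in the tables, Dppa3 being on both lists, and all 4 fell, from 273.7 to 750.4 FPKM in NC to 65.5 to 184.9 FPKM in MF. Of 15 cardiomyocyte markers 12 are in the tables, all listed as higher in MF, and their sum went from 35.5 to 75.5 FPKM in NC to 129.0 to 688.2 FPKM in MF. Cardiomyocyte markers were thus measured in both groups; Nkx2-5, Nppa and Ryr2 were not analysed here. Of 20 markers of visceral endoderm and of hepatocytes, which are best known for Cyp2 genes, 2 are in the tables, Foxa1 and Gata6. Both rose, their sum going from 2.09 to 6.02 FPKM in NC to 10.4 to 29.4 FPKM in MF, opposite in direction to Cyp2b23. Which cells of these libraries express Foxa1 and Gata6 was not tested. Alb, Afp, Hnf4a and the other 15 markers of that list were not analysed here. The lists of steroidogenic and erythroid cells have no gene in the tables. The endothelial list had 7 of 8 tested genes called higher and 1 lower, and the mesenchyme list 11 of 11 higher. The trophoblast list had 2 of 2 higher, Hand1 and Cdx2, and the macrophage list 1 of 1. The 1 neural gene in the tables, Dcx, was under the filter. The part of these cell types in the Cyp2b23 result was not tested.

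Genes that work with or beside P450 enzymes were taken from 8 lists of 154 entries. Of them 12 are in the tables, all 12 were tested, and edgeR called 5 higher and 7 lower in MF. Over all tested genes 97.5% were called, 62.1% higher and 35.4% lower, so 12 calls of 12 are what the selection gives. None of the 20 listed electron donors, heme enzymes and xenobiotic receptors, which include Por, Ahr, Nr1i2 and Nr1i3, is in the tables, nor is any of the 22 genes of cholesterol synthesis or the 16 of oxysterol and bile acid metabolism. These were not analysed here. All 5 higher calls were lost with TMM, with median-of-ratios scaling and in DESeq2 with its own size factors. Over all tested genes the higher calls went from 1026 to 291, 158 and 263 in these fits. All 7 lower calls were kept in number, and every one of the 12 genes kept its direction. Lower calls over all tested genes were 584 in the reported fit and 589, 507 and 599 in these fits. DESeq2 with library totals called all 12, 5 higher and 7 lower. It called all 1651 tested genes, so its 12 calls show nothing beyond the selection. The other 3 scalings were computed from the selected genes alone and lowered fold changes in general, so they cannot tell whether the rises are less firm than the falls. Without MF replicate 3 edgeR called none of the 12, with 8 at an unadjusted p under 0.05. That fit called 12 of all 1651 tested genes. It called 4, 7 and 9 of the pathway genes without NC replicates 1, 2 and 3, against 641, 735 and 1012 of the 1651. Without MF replicates 1 and 2 edgeR called 2 and 12 of the pathway genes, against 447 and 1578 of the 1651.

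The 4 genes of the phase II and eicosanoid lists that are in the tables fell. As 35.4% of all tested genes were called lower, so few genes show little beyond the selection. All 3 deposited genes among 30 of phase II conjugation fell, with a median log2 fold change of -1.36 against 1.22 over all tested genes. Gsta4, a glutathione transferase that handles products of lipid peroxidation, stood at 97.6, 143 and 101 FPKM in NC replicates 1 to 3 and at 24.7, 76.8 and 31.9 FPKM in MF replicates 1 to 3. It fell 2.57-fold (log2 fold change -1.36, SE 0.49, edgeR adjusted p = 0.0306), and without MF replicate 2 the fold was 4.03. Nqo1, a quinone reductase, stood at 16.4, 19.2 and 15.3 FPKM in NC and 6.48, 8.39 and 6.57 in MF, a fall of 2.37-fold (edgeR adjusted p = 0.0247). Gsta3, another glutathione transferase, fell 4.32-fold from 2.13 ± 1.47 to 0.493 ± 0.247 FPKM (SD, n = 3; edgeR adjusted p = 0.0247). Without NC replicate 2 the Gsta3 fold was 2.60 and the call was lost (edgeR adjusted p = 0.0658). In that fit the lower calls over all tested genes went from 584 to 146. Of 16 eicosanoid genes 1 is in the tables, Ephx2, the soluble epoxide hydrolase that opens the epoxides some P450 enzymes make from arachidonic acid. Ephx2 stood at 7.02, 15.97 and 5.80 FPKM in NC and 1.76, 5.30 and 2.84 in MF, a fall of 2.91-fold (edgeR adjusted p = 0.0316). None of these 4 genes had overlapping groups, as 92.5% of tested genes did not, and MF replicate 2 was the highest exposed library for each of them, as for 89.8% of the tested genes listed as lower.

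Of 24 listed genes of retinoid metabolism 4 are in the tables, and 3 rose and 1 fell, against 62.1% of all tested genes called higher. Their median log2 fold change was 1.60 against 1.22 over all tested genes. All 3 higher calls were lost with TMM, median-of-ratios scaling and DESeq2 with its own size factors, all computed from the selected genes alone. Higher calls over all tested genes went from 1026 to 291, 158 and 263 in these fits. With median-of-ratios scaling the log2 fold changes were 1.10 for Aldh1a2, 0.63 for Stra6 and 0.51 for Rarb. DESeq2 with library totals kept all 3 calls, as it called all 1651 tested genes. Aldh1a2, the main embryonic enzyme that makes retinoic acid, rose 4.64-fold from 0.387 ± 0.157 to 1.81 ± 0.658 FPKM (SD, n = 3; edgeR adjusted p = 0.0230). Stra6, the cell-surface receptor that takes up retinol, rose 3.21-fold from 0.502 ± 0.106 to 1.61 ± 0.172 FPKM (SD, n = 3; edgeR adjusted p = 0.0227). Rarb, a retinoic acid receptor, stood at 0.510, 0.212 and 0.751 FPKM in NC and 1.82, 1.06 and 1.32 in MF, a rise of 2.85-fold (edgeR adjusted p = 0.0354). The gene that fell was Stra8, a germ cell gene induced by retinoic acid, which is on the germ cell list too. It stood at 17.5, 57.3 and 9.06 FPKM in NC and 0.260, 2.74 and 0.750 in MF, a fall of 22.4-fold (edgeR adjusted p = 0.0127). The Stra8 fold was 10.6 without NC replicate 2 and 55.6 without MF replicate 2. The Cyp26 enzymes, which break down retinoic acid, were not analysed here.

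The steroid and vitamin D lists each had 1 gene higher and 1 lower. Hsd11b2, which inactivates glucocorticoids, stood at 14.2, 2.73 and 18.3 FPKM in NC and 62.2, 23.8 and 63.8 in MF, a rise of 4.26-fold (edgeR adjusted p = 0.0258). Nr5a2, a nuclear receptor that activates steroid and bile acid genes and is also active in pluripotent cells, fell 4.23-fold from 8.03 ± 6.65 to 1.90 ± 1.21 FPKM (SD, n = 3; edgeR adjusted p = 0.0263). The groups of Nr5a2 overlapped, as MF replicate 2 at 3.23 FPKM lay above NC replicate 3 at 3.19. Without NC replicate 2 the Nr5a2 fold was 2.23 and the call was lost (edgeR adjusted p = 0.0839), and without MF replicate 2 the fold was 6.50. Lower calls over all tested genes went from 584 to 146 without NC replicate 2. Vdr, the vitamin D receptor, rose 3.55-fold from 0.396 ± 0.079 to 1.41 ± 0.381 FPKM (SD, n = 3; edgeR adjusted p = 0.0224). Lrp2, an endocytic receptor that takes up the vitamin D carrier, fell 2.01-fold from 5.98 ± 1.32 to 2.98 ± 1.20 FPKM (SD, n = 3; edgeR adjusted p = 0.0409).

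**Figure D5:**
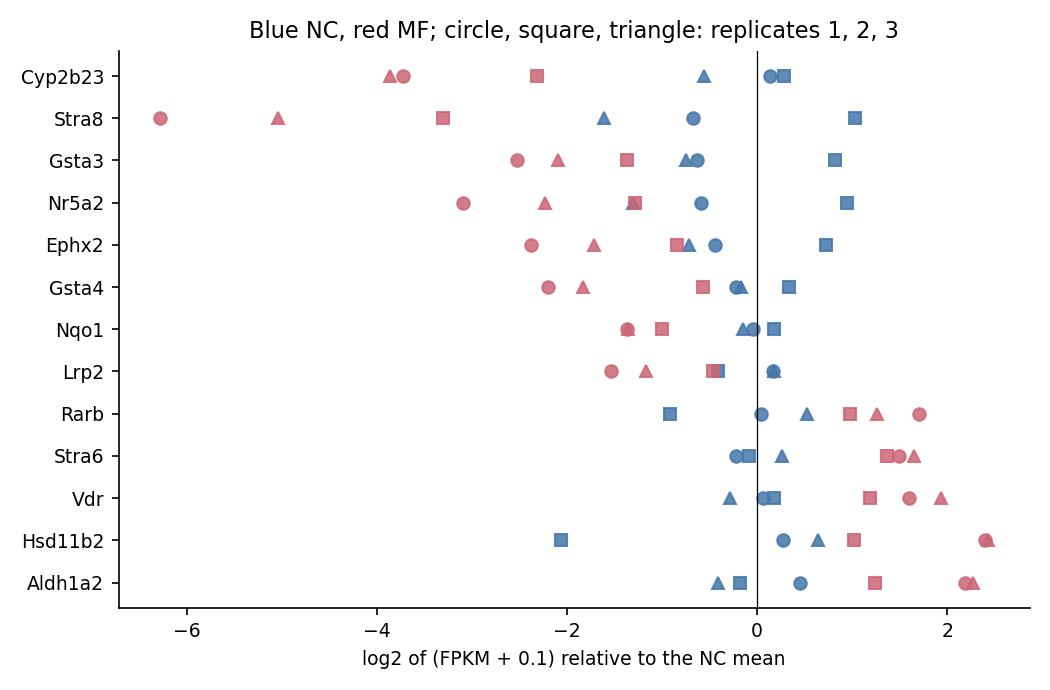
Level in each library relative to the NC mean, as log2 of (FPKM + 0.1), for Cyp2b23 and the 12 named genes of the pathway lists; blue is NC, red MF, and circles, squares and triangles are replicates 1, 2 and 3. The red squares (MF replicate 2) lie nearest to the controls for all genes that fell, Cyp2b23 included. The higher calls of Rarb, Stra6, Vdr, Hsd11b2 and Aldh1a2 were lost with TMM and with median-of-ratios scaling, both computed from the selected genes alone. In these 2 fits the higher calls over all tested genes went from 1026 to 291 and 158, those of these 5 genes among the ones lost. DESeq2 with library totals kept them, as it called all 1651 tested genes.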

How the data were processed

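Per the submitters' processing notes, the authors used HISAT2 2.0.5, featureCounts and build mm10; the sources used here give no settings, strand use or tool of their comparison. Per the file headers, each library's table holds a raw count, an FPKM value, a normalized signal, gene length, and, from the authors' own comparison, p-values raw and adjusted and a log2 fold change. Counts divided by the deposited signal were constant within a library, and this factor was proportional to the library total that the FPKM values imply. These totals, 14929232 to 19176383, served as library sizes; the tabulated genes take 5.68% to 10.4% of them, and 48 rows without a gene name (at most 0.0390%) stayed out of tests.

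The 1651 named genes whose mean reached 0.5 FPKM were tested with edgeR 4.0.16 (R 4.3.3), quasi-likelihood, group as the only term, two-sided, threshold 0.05. Alternatives used limma 3.58.1, DESeq2 1.42.0, other scalings and filters, the replicate number as a block, and fits without 1 library each. The fit was tested on simulated data. Coding and promoter sequences came from GENCODE M21 and RefSeq (GRCm38, the genome of mm10), compared with BLAST 2.17.0 and Biopython 1.88.

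Cyp2b23 and the lists were chosen with earlier results of these data known. All Cyp2b23 values are given; of each pathway list, up to 4 genes with the highest mean FPKM, and the 3 genes most correlated with Cyp2b23, are named. 1 listed gene is not reported here and was left out of the lists, so that Rarb is named by the rule in its place. The genes nearest on the chromosome were named after their values were seen. Replicate numbers are shared between the groups. After subtracting group means, same-numbered libraries had correlations across genes of 0.38 (number 1), 0.55 (number 2) and 0.38 (number 3), so they were taken as pairs for the block, although NC replicate 3 correlated more with MF replicate 1 (0.56). No 2 libraries of a group agreed within sampling noise.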

Additional observations from a re-analysis of the deposited data

How the results depend on the processing

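Cyp2b23 was lower in MF in all 16 alternatives and called in 14 of them, with log2 fold changes from -5.003 to -1.44 and adjusted p-values from 3.37e-05 to 0.156. It was not called when edgeR's p-values were adjusted over 19069 tests (log2 fold change -3.73) or without MF replicate 3. With 1 library left out the value ranged from -5.003 (without MF replicate 2) to -3.34 (without MF replicate 3), and the count of called genes from 12 (without MF replicate 3, with 858 at an unadjusted p under 0.05) to 1578; that of the pathway genes ranged from 0 to 12. The count over all tested genes was 1610 in the reported fit, 880 with TMM, 665 with median-of-ratios scaling and 862 in DESeq2; for the 12 pathway genes it was 7, 7 and 7. Over 19069 tests edgeR called 0 genes and 0 pathway genes, with 1613 genes at an unadjusted p under 0.05, while DESeq2 with library totals called 598 genes and the replicate block 504. With the replicate number as a block, Cyp2b23 stood at -3.99 and 1620 genes were called; adjusted over the 1651 tested genes it changed no call of Cyp2b23 or of the 12 pathway genes, while over 19069 tests it called Cyp2b23 (adjusted p = 0.0360) and 3 pathway genes. Of the calls of the 15 other genes named or listed, 157 of 237 recomputed values kept their side of the threshold, 80 lost it and 0 changed sign. The lower calls made up 36.3% of calls with library totals, 66.9% with TMM and 76.2% with median-of-ratios scaling. TMM, median-of-ratios scaling and the size factors of DESeq2 were computed from the selected genes alone. Their shift towards lower calls therefore cannot tell whether rises are less firm than falls. Depth limits Cyp2b23 in the exposed group, where 2 of 3 libraries hold 3 counts or fewer. DESeq2 with library totals, its adjustment over 19069 tests and all alternatives for the pathway genes were chosen after seeing the data.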
